A study of Mus musculus with 2 samples.

Results

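TBP was mapped across a pair of compact stretches of the mouse genome, chr3:96200001-96700000 and chr11:68700001-69000000 (build mm8), in embryonic stem cells. The stretches were divided into non-overlapping tiles of 200 bp, 2500 on chromosome 3 and 1500 on chromosome 11, 4000 in all. Of these, 3635 lay in 1-kb bins holding a single-alignment read of either library, as did 11331315 tiles of the whole genome. A read belonged to the tile that held its 5' end moved 60 bp towards the middle of its fragment, and reads of the same strand and position were counted once ("distinct reads"). The windows were chosen by the density of calls in these same libraries, so their enrichment, the number of sites and the spacing of sites are described here without a test.

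TBP, the TATA-binding protein, takes part in transcription by RNA polymerases I, II and III. At tRNA genes it acts within the factor TFIIIB, at small nuclear RNA genes it works beside the complex SNAPc, and at RNA polymerase II promoters, those of the replication-dependent histone genes among them, it acts within TFIID. Genes of all these kinds are short, and many lie packed side by side.

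Chromatin immunoprecipitation with a TBP antibody (Abcam AB818) was followed by sequencing in 2 libraries of 1 group, both from V6.5 cells, an embryonic stem cell line of C57BL/6 and 129 origin. The line was kept on irradiated mouse embryonic fibroblasts, and the cells were then moved off these feeders, for 2 passages before library B2 (replicate 1) and 1 passage before library B6 (replicate 2). The labels do not say whether the libraries came from separate cultures, and the p-values that set them side by side weigh 1 library against 1 library with read-counting error alone, without any spread between samples. No control or input library was analysed here, and the background came from the same libraries.

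B2 had reads of 36 bases and 15887305 distinct reads with a single alignment on the nuclear chromosomes, and B6 had reads of 26 bases and 2856259. Levels are given in RPM (distinct reads scaled to a common library total), so that 1 read was worth 0.0629 RPM in B2 and 0.350 RPM in B6. The mean tile of the genome held 1.40 and 0.252 distinct reads. Read length, depth, passage number and sequencing run all differ between the libraries and cannot be told apart.

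The name "gene clusters" for these windows could not be checked, because the files name no genes and no annotation of mm8 was used. The RefSeq table of another build, GRCm38.p6, was read for names and gene order alone, and no site was assigned to a gene. In it, chromosome 3 carries a neighbourhood of 10 histone cluster 2 genes, H2ac21 first and H2bc18 last, with at most 4 other genes between members. The same chromosome carries 40 tRNA genes, of which 25 form a neighbourhood that also holds the U1 small nuclear RNA genes Rnu1b1, Rnu1b2 and Rnu1b6. On chromosome 11, the longest tRNA neighbourhood has 18 of the chromosome's 52 tRNA genes, among Aurkb, Borcs6, Tmem107, Vamp2, Per1 and Hes7. Whether these neighbourhoods are the windows described here was not tested.

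The windows held 0.126% of all distinct reads in B2 and 0.191% in B6, a mean of 0.158% ± 0.0459 (SD, n = 2). The chromosome 3 window held 10088 distinct reads in B2, 3.37 times a uniform spread over tiles in bins holding reads, and 2614 in B6, 4.86 times. The chromosome 11 window held 9932 reads in B2, 4.72 times a uniform spread, and 2839 in B6, 7.51 times. Both windows stood above a uniform spread in both libraries, chromosome 11 further than chromosome 3 and B6 further than B2.

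A tile was called when its distinct reads gave a one-sided Poisson p of at most 1e-09 against the highest of the genome-wide, 5-kb and 10-kb rates and at least 20% of them lay on each strand. In B2 81 of the 4000 tiles were called, 43 on chromosome 3 and 38 on chromosome 11, where 0.132% of all tiles were called. In B6 47 were called, 23 and 24, against 0.0513% of all tiles. All 47 were also called in B2, which is 1.18% of the members against 0.0484% of all tiles. Nothing is read from these differences, since such calls chose the windows.

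Touching called tiles that held at least 1 tile called in both libraries were joined into sites, which gave 40 of the genome's 4855 sites, 21 on chromosome 3 and 19 on chromosome 11. Most sites were narrow: 24 spanned 1 tile, 15 spanned 2, and 1 site, chr11:68853601-68854200, spanned 600 bp. Of the 4815 sites elsewhere, 2401 spanned 1 tile and 2083 spanned 2. The reads were concentrated in few tiles. On chromosome 3 the 28 tiles of the sites, 1.12% of the window, held 30.7% of its reads in B2 (exact 95% binomial interval 29.8% to 31.6%) and 41.6% in B6 (39.7% to 43.5%). On chromosome 11 the 29 tiles of the sites, 1.93% of the window, held 40.4% in B2 (39.5% to 41.4%) and 53.8% in B6 (51.9% to 55.6%). These intervals cover the counting error of distinct reads only, without any spread between samples.

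Most member tiles held few reads. The median tile of the chromosome 3 window held 1 read in B2 and 0 in B6, and that of the chromosome 11 window 2 and 0. On chromosome 3, 796 tiles (31.8%) were empty in B2 and 1756 in B6, and on chromosome 11, 234 (15.6%) and 919. Tiles at least 1 kb from any call still held more reads than such tiles elsewhere. Their mean in B2 was 2.35 reads on chromosome 3 and 2.58 on chromosome 11, against 1.29 in the genome, and in B6 0.469 and 0.528 against 0.217.

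**Figure D1:**
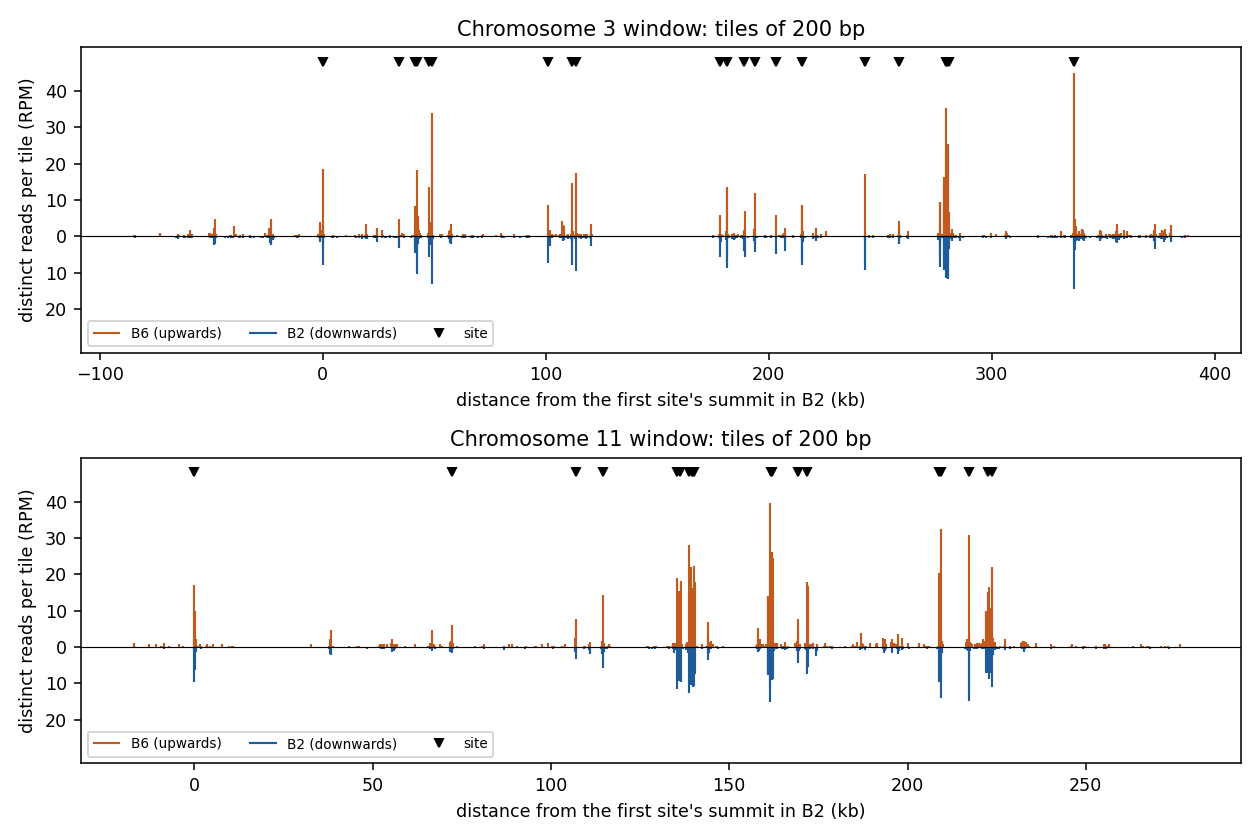
Distinct reads per 200-bp tile in RPM (vertical axis, B6 upwards and B2 downwards) against the distance in kb from the summit of the first site of each window (horizontal axis), with triangles at the sites. The highest tiles reach 44.8 RPM on chromosome 3 and 39.6 RPM on chromosome 11, both in B6, and on chromosome 3 a stretch of 64435 bp between the ninth and the tenth site holds no site.

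On chromosome 3 the highest site was chr3:96643201-96643600, where B2 had 291 distinct reads and B6 had 142. Its highest tile reached 14.5 RPM in B2 and 44.8 RPM in B6, a mean of 29.7 ± 21.4 (SD, n = 2). The B6 level was above the B2 level here, as at nearly every site described further on. The next site by the mean of both libraries, chr3:96355001-96355200, held 207 and 97 distinct reads, or 13.0 and 34.0 RPM in its 1 tile.

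Ranks 3 to 5 on chromosome 3 lay together within 1200 bp. The site chr3:96585801-96586000 held 181 and 101 reads in B2 and B6 (11.4 and 35.4 RPM). Its neighbours, chr3:96586401-96586600 with 186 and 69 reads (11.7 and 24.2 RPM) and chr3:96586801-96587000 with 184 and 73 (11.6 and 25.6 RPM), were as high in B2 and lower in B6. Their summits stood 629 and 455 bp apart, the second being the closest spacing on chromosome 3, and the group of 3 held 551 and 243 distinct reads.

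The remaining 3 of the 8 highest sites on chromosome 3 were lower. The site chr3:96348601-96348800 held 164 and 52 reads, its highest tile reaching 10.3 RPM in B2 and 18.2 RPM in B6. It stood 1000 bp from a weaker neighbour, at chr3:96347601-96347800, with 73 and 24 reads. The site chr3:96420001-96420200 held 151 and 50 reads (9.50 and 17.5 RPM), and chr3:96306201-96306600, the first site of the window, held 174 and 64 (7.87 and 18.6 RPM in its highest tile). Over all 21 sites of chromosome 3 the highest tile ranged from 2.08 to 14.5 RPM in B2, with a median of 7.87, and from 4.20 to 44.8 RPM in B6, with a median of 13.7.

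On chromosome 11 the highest site, chr11:68879001-68879400, had 417 distinct reads in B2 against 179 in B6. The levels of its highest tile were 15.2 RPM in B2 and 39.6 RPM in B6 (mean 27.4 ± 17.2, SD, n = 2). Distinct reads filled 60.5% of the 400 possible positions of that tile (both strands) in B2, the fullest tile of all sites in the windows. With duplicates kept the site held 1362 reads in B2 and 291 in B6.

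The sites ranked 2 and 3 on chromosome 11 resembled each other in level. At chr11:68927001-68927200 there were 225 and 93 distinct reads (14.2 and 32.6 RPM), and at chr11:68935001-68935200 there were 238 and 88 (15.0 and 30.8 RPM). Rank 5, chr11:68879601-68880000, held 287 and 145 reads in 2 tiles and had its summit 449 bp from that of the highest site, so that this pair together held 704 reads in B2 and 324 in B6. Rank 7, chr11:68941401-68941600, was the last site of the window and held 176 and 63 (11.1 and 22.1 RPM). Over all 19 sites the highest tile ranged from 1.76 to 15.2 RPM in B2, with a median of 9.63, and from 5.95 to 39.6 RPM in B6, with a median of 18.9.

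The other 3 of the 8 highest sites on chromosome 11 belonged to a group of 4 sites between 68856401 and 68858200, which held 833 distinct reads in B2 and 304 in B6. In order along the chromosome, chr11:68856401-68856600 held 199 and 80 reads, and chr11:68857001-68857200 held 167 and 63. Then came chr11:68857401-68857600 with 177 and 46, and chr11:68857801-68858200 with 290 and 115. The 4 summits stood 375 to 629 bp apart, and 375 bp was the closest spacing in either window. The levels of the 4 sites in B2 were alike, at 10.5 to 12.5 RPM in the highest tile, whereas in B6 they ran from 16.1 RPM at chr11:68857401-68857600 to 28.0 RPM at chr11:68856401-68856600. None of these tiles passed the test of the difference between libraries given further on.

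**Figure D2:**
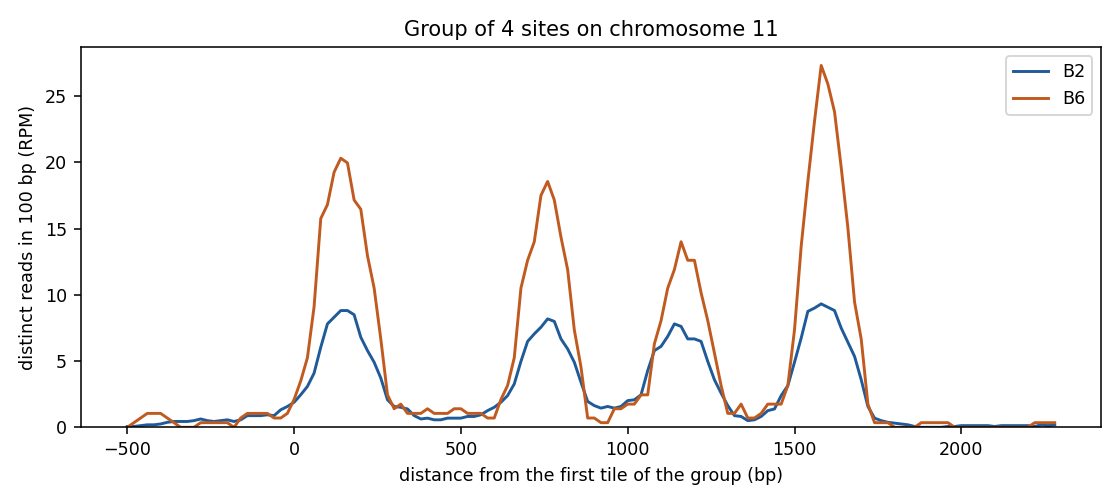
Distinct reads in 100 bp, in RPM (vertical axis), along the group of 4 sites on chromosome 11 (horizontal axis, distance in bp from the first tile of the group), one line per library. B2 and B6 rise and fall together at 4 maxima, with summits 375 to 629 bp apart.

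Such groups recurred in both windows. With neighbouring summits at most 1000 bp apart counted together, chromosome 3 had 2 groups (2 and 3 sites) and chromosome 11 had 4 (2, 4, 2 and 2 sites). The chromosome 11 groups not yet given held 675 and 217 reads (chr11:68853001-68854200, the widest site among them) and 439 and 163 reads (chr11:68926401-68927200). Of the 40 sites, 9 (22.5%) had the next summit within 1000 bp, as did 1.54% of the 4815 sites elsewhere, a difference that the choice of dense windows fixes. At the other extreme, the widest gaps were 64435 bp on chromosome 3, after chr3:96420001-96420200, and 72298 bp on chromosome 11, between chr11:68717601-68718000 and chr11:68790001-68790200. The latter site was the lowest on chromosome 11, with 28 and 17 reads.

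Of the members, 34 tiles were called in B2 alone, 20 on chromosome 3 and 14 on chromosome 11, and 24 of them lay outside the sites. Calls in B2 alone were common in the genome too: 14925 of its tiles were called in B2 and 5487 in both libraries, against 81 and 47 of the members. In B6, 2 of the 34 missed the share of reads per strand alone, and 32 missed the Poisson threshold, 6 of these missing the strand share too. Of the 32, 23 (with 9 to 47 reads in B6) passed the Poisson threshold against the genome-wide rate alone and missed it only against the 5-kb or 10-kb rate. The other 9, with 0 to 7 reads in B6, missed it against the genome-wide rate as well. The tile chr3:96585001-96585200, just before the group of 3 sites, held 147 distinct reads in B2 and 47 in B6, but the 5-kb or 10-kb rate around it in B6 was 19.0 per tile. On chromosome 11 the tile chr11:68878601-68878800, beside the highest site, held 121 and 39.

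A finer map, chosen after the data were seen, took separate maxima of the smoothed distinct reads in tiles called in both libraries against the genome-wide rate alone. It held 30 maxima on chromosome 3 and 27 on chromosome 11, of which 8 and 7 lay outside the sites. A B2 maximum was kept only where B6 had a maximum within 60 bp, so the rule fixes their match. Maxima in a run of touching tiles had to lie at least 150 bp apart and rise by a set amount above their surroundings. The short spacings are thus bounded by the rule. On chromosome 11, 11 spacings between successive maxima were within 1000 bp, 348 to 617 bp with a median of 441 bp, and they joined 16 of the maxima. On chromosome 3 there were 6 such spacings, from 207 to 950 bp with a median of 543.5 bp, joining 10 maxima. The widest site, chr11:68853601-68854200, resolved into 2 maxima, and so did the highest site of chromosome 11.

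At all 4 borders the nearest site outside was lower than the nearest site inside. The last site before the chromosome 3 window, chr3:96189801-96190000, held 36 and 16 distinct reads, and the first after it, chr3:96715201-96715400, held 65 and 22. Around the chromosome 11 window, chr11:68669201-68669600 held 189 and 53 reads and chr11:69139801-69140200 held 127 and 41. The sites just inside, with 174 and 64 (first) and 291 and 142 (last) on chromosome 3, and 250 and 77 (chr11:68717601-68718000) and 176 and 63 on chromosome 11, lay within the range of the other members.

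Sites high in one library were high in the other. Over the 40 sites, RPM in B2 and B6 had a Pearson r of 0.910 and a Spearman rho of 0.926. Over all 4000 tiles on the log2(RPM + 0.5) scale, r was 0.825 and rho 0.467, and over the 340 tiles with at least 10 reads r was 0.886 and rho 0.724. These values describe tiles and sites that share libraries, antibody and mappability, and neighbouring tiles share fragments, so no p-value is given.

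B6 was the higher library at nearly every site. The ratio of B6 to B2 RPM was above 1 at 39 of 40 sites, with a median of 1.97 (1.84 on chromosome 3 and 2.10 on chromosome 11), and it was 2.04 (95% interval 1.95 to 2.14) with the reads of all 40 sites summed. This interval covers counting error only. Sites elsewhere had a median of 2.10, and 4800 of the 4815 were above 1. Scaled by the median ratio over all called tiles of the genome, 2.25, the median of the 40 sites was 0.878, so their direction turned under that scaling. The exception was chr3:96495201-96495600, where B2 had 154 reads and B6 had 25 (ratio 0.903). The highest ratios were 3.38 at chr11:68790001-68790200, the lowest site of its window, and 3.10 at chr3:96585801-96586000.

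The size of the ratio moved with the treatment of duplicates. With every read kept the median ratio was 1.30 and 29 of 40 sites were above 1, against a median of 1.86 and 4683 of 4815 sites elsewhere. At the median site of the windows, duplicates made up 39.4% of reads in B2 and 20.2% in B6, against 14.5% and 8.70% at sites elsewhere. At chr3:96586801-96587000, 184 distinct reads in B2 stood for 665 reads, a duplicate share of 72.3%. Distinct reads cannot exceed the 400 positions of a tile. In B2, 5 of the 40 sites (12.5%) had over 50% of the positions of their highest tile filled, against 1.87% of sites elsewhere. Among sites over 10 RPM in B2 this share was 33.3% in the windows and 40.2% elsewhere. The part of this ceiling in the ratio was not tested.

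Sites elsewhere at a like level were closer to the members than sites elsewhere as a whole. Over 10 RPM in B2, 15 members had a median duplicate share of 58.3% in B2 and a median ratio of 2.21, and 224 other sites had 49.9% and 2.24. With all reads kept the medians of the ratio were 1.13 and 1.36.

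**Figure D3:**
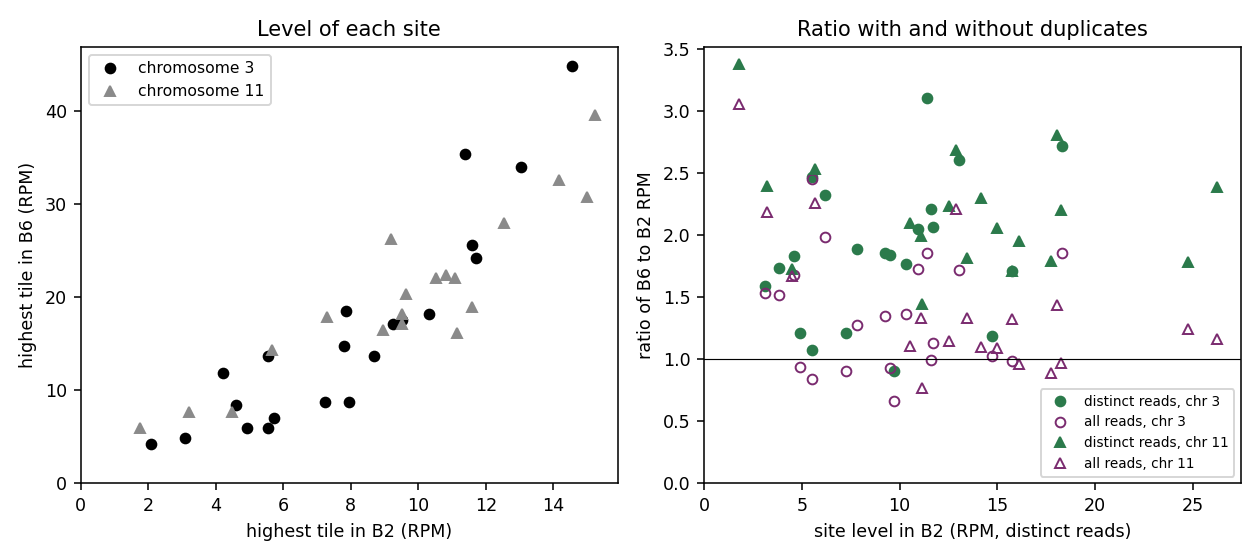
Left, the RPM of each site's highest tile in B6 (vertical axis) against B2 (horizontal axis) for the 21 chromosome 3 sites (circles) and 19 chromosome 11 sites (triangles). Right, the ratio of B6 to B2 RPM (vertical axis) against the site's B2 level in RPM (horizontal axis), filled for distinct reads and open for all reads: 39 of 40 filled points but 29 of 40 open points lie above 1.

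The difference between libraries was tested tile by tile, since it played no part in the choice of the windows. The B6 share of distinct reads was set against 29.2%, the share over all tiles called in both libraries, by a two-sided exact binomial test with Benjamini-Hochberg adjustment over the 96890 tiles of the genome with at least 10 reads. In the genome 0.156% of tiles passed at an adjusted p of 0.05, 0.095% higher in B6 and 0.0609% lower. Of the 340 members tested 2 passed (0.588%), both lower in B6, and 57 (16.8%) had an unadjusted p below 0.05, against 12.2% of all tiles tested. Among the 47 members called in both libraries none passed this exact binomial test (11, or 23.4%, had an unadjusted p below 0.05), where 0.857% of all tiles called in both did (10.1% at an unadjusted p below 0.05). The call depended on the expected share and the minimum of reads. The 29.2% comes from the 5487 tiles called in both libraries, and most of the 96890 tiles tested were not among them. A tile not called in B6 was thus set against a share that makes a result lower in B6 likelier. Against the share of all distinct reads 51 of the 340 members passed, 50 of them higher in B6 (15.0%, against 6.87% of all tiles tested), and with no minimum of reads none of 3094 members passed (63 at an unadjusted p below 0.05).

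The tile chr11:68892001-68892200 held 41 distinct reads in B2 (2.58 RPM) and 0 in B6, with an adjusted exact binomial p of 0.00167. Its count was 67 and 0 with duplicates kept, and reads with 2 alignments numbered 18 in B2 and 1 in B6. It was called in B2 only and was not part of a site. The tile chr3:96495201-96495400 held 63 and 5 distinct reads (3.97 and 1.75 RPM), 0.193 times the expected ratio, with an adjusted exact binomial p of 0.0187. It formed the left part of the only site with a ratio below 1, and the tile beside it held 91 and 20. Neither tile was called in B6, so both were set against a share taken from tiles that were. B6 had the shorter reads, and the part of read length in these differences was not tested.

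The libraries placed the sites alike. The summits differed by a median of 13 bp, by at most 20 bp at 26 of 40 sites (65%), against a median of 24 bp at sites elsewhere. Among sites over 10 RPM in B2 the medians were 9 bp and 12.5 bp. Each summit was sought inside its site, so the width of the site bounds the difference. The members spanned 1 tile at 24 of 40 sites, against 2401 of 4815 elsewhere. Over 10 RPM these counts were 11 of 15 and 78 of 224. The part of site width in these medians was not tested. The widest difference, 202 bp, was at chr3:96521001-96521400. It held 2 maxima, at 96521115 and 96521322 in B2, and each had a maximum in B6 within 8 bp.

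At all 40 sites in both libraries the plus-strand ends lay before the minus-strand ends, as they did at 4764 (B2) and 4734 (B6) of the 4815 sites elsewhere. For B2 the median distance between the strands was 97.5 bp, for B6 it was 79 bp, and sites elsewhere had 98.5 and 95.75 bp. The 5' ends were less spread than at other sites, with a median interquartile range of 106 bp for B2 (135.5 elsewhere) and 83.9 bp for B6 (110 elsewhere). That difference was small among sites over 10 RPM, where B2 gave 110 bp in the windows and 111 bp elsewhere. The labels give a narrower size selection for B6 than for B2.

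**Figure D4:**
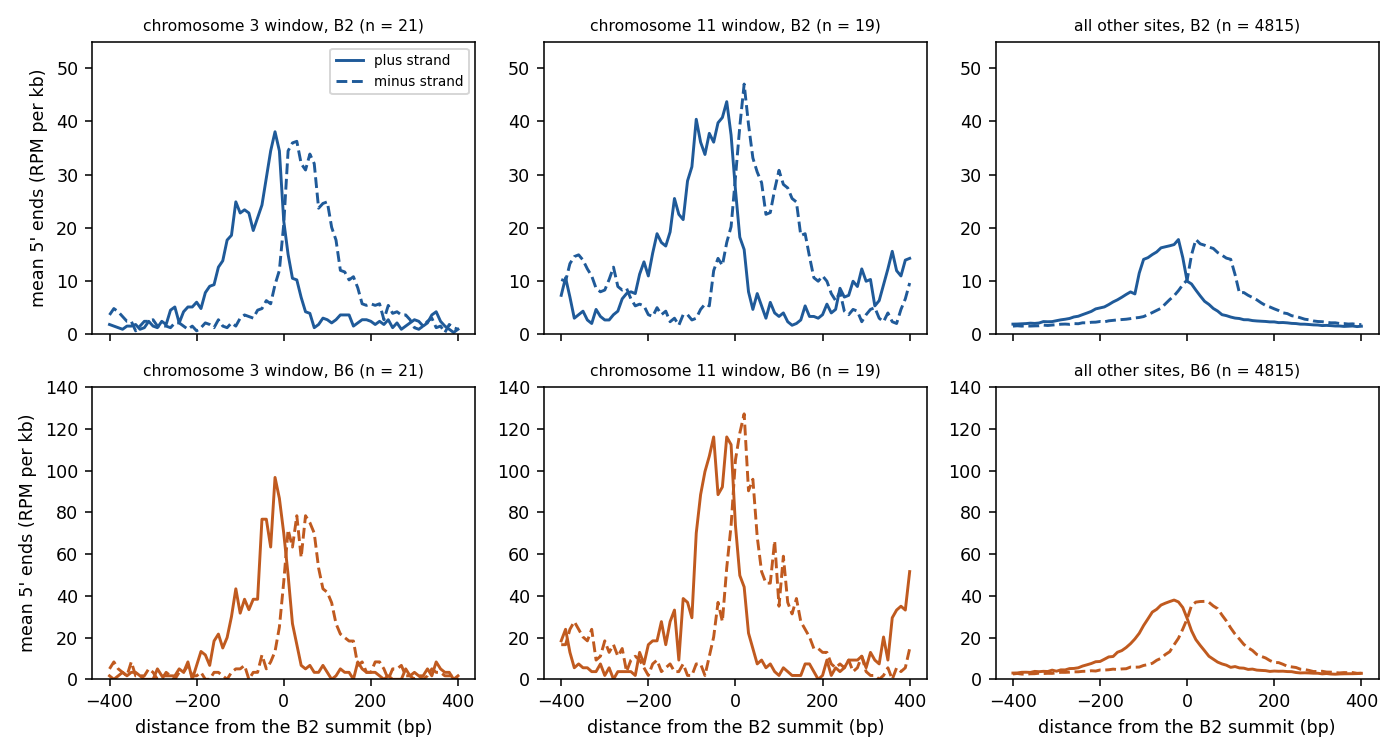
Mean 5' ends in RPM per kb (vertical axis) by strand against the distance in bp from the B2 summit (horizontal axis), for the sites of each window and for all other sites, B2 above and B6 below. The plus-strand maximum is 38.1 in B2 for chromosome 3, 43.7 for chromosome 11 and 17.8 for other sites, and the chromosome 11 lines rise again at the edges, where neighbouring sites begin.

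The windows differed most in reads that aligned to 2 places, which the values above leave out. Each such read is listed at both places. The chromosome 3 window held 7712 distinct listings in B2 and 2795 in B6. These were 34.4 and 32.9 times the rate per kb of genome bins holding reads, with the whole window length counted. They made up 43.3% and 51.7% of the window's listings of reads with 1 or 2 alignments, where the genome had 6.01% and 11.9%. The chromosome 11 window held 386 and 203, or 2.87 and 3.98 times the genome's rate, and 3.74% and 6.67% of its listings. A read with both places in the window is counted at each, so these are not shares of reads.

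These reads gathered at 23 places of neighbouring tiles with at least 20 such reads per tile in B2, 21 of them on chromosome 3. Of these, 17 formed 9 pairs. In B2 at least 80% of positions at each of the 17 matched in opposite orientation at 1 constant, exactly to the base. Both places of a pair had the same constant, except where the largest place was joined to its second partner. The share matched was 84.8% to 100% at the 17 places, and the next best constant, over 25 bp away or in the same orientation, matched 48.3% to 92.9%. The highest of these next best values belonged to the pair chr3:96435201-96435400 and chr3:96469601-96469800, with 28 and 30 reads, where the constants are thus hardly told apart. The 6 places in no pair matched 58.0% to 97.1% at their best constant and 49.4% to 95.7% at the next. In each pair with enough B6 reads the constant differed between the libraries by 10 bases, which is their difference in read length. The 5 pairs with most reads are given here. The place chr3:96536601-96538200 was listed with 609 reads in B2 and 254 in B6, and its mirror image, chr3:96543401-96544800, with 602 and 253. Likewise chr3:96571601-96572600 had 350 and 126, and chr3:96573801-96574600 had 341 and 124.

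The largest place, chr3:96330601-96332400, with 908 and 461 reads, mirrored 2 places, chr3:96324201-96325200 with 489 and 228 and chr3:96325601-96326000 with 410 and 230. Its share matched, 84.8% in B2, was at the constant of the former, and the constant of the latter lay 4 bp away. In B6 its share matched was 75.3%. The fifth pair was chr3:96431801-96432200, with 270 and 82, and chr3:96472601-96473200, with 286 and 85. The other 4 pairs had 28 to 265 reads in B2 and 1 to 95 in B6 at each place. The near-equal counts follow from each read being listed at both copies, so they say nothing on which copy TBP occupied.

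The 9 pairs fell about 4 axes, all on chromosome 3. The widest, about 96452478, had arms chr3:96425741-96446237 and chr3:96458711-96479220 with 12473 bp between them, and its 8 places held no read with a single alignment in either library. These arms fill most of the 64435 bp in which chromosome 3 had no site. The other axes lay at 96328319, 96540722 and 96573129, with 4684, 1893 and 1031 bp between their arms. Together the mirrored arms held 84.4% of the chromosome 3 window's listings of reads with 2 alignments in B2 and 85.7% in B6.

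**Figure D5:**
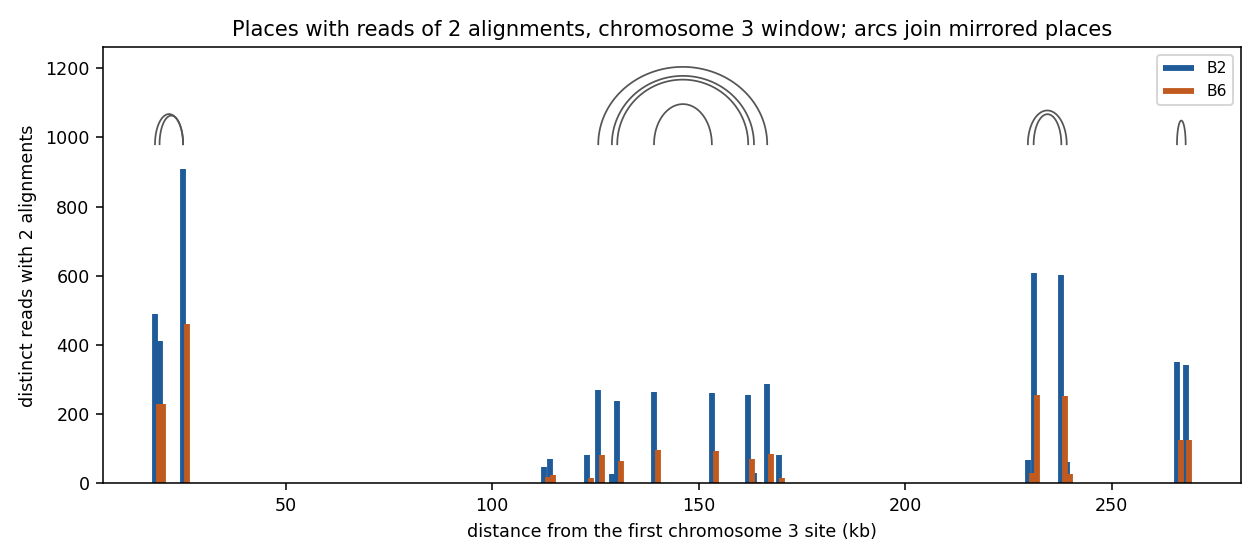
Distinct reads with 2 alignments at each place of the chromosome 3 window (vertical axis; bars for B2 and, drawn just beside them, B6) against the distance in kb from the first chromosome 3 site (horizontal axis), with arcs joining mirrored places. The arcs are nested about 4 axes, and paired bars are of near-equal height, as with 609 and 602 reads in B2.

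Some empty tiles of the chromosome 3 window held reads of this kind. Of the 796 tiles with no single-alignment read in B2, 313 held reads with 2 alignments, and 2135 of the window's 2500 tiles lay in bins that held any single-alignment read. On chromosome 11 all 1500 tiles did. With reads of 1 or 2 alignments counted alike, chromosome 3 had 37 sites in place of 21. A read with 2 alignments counts at both of its places there, so 1 occupied copy can give a site at each. On chromosome 11 the 2 places with such reads, chr11:68889601-68889800 (74 and 31) and chr11:68927001-68927200 (34 and 10), had no clear partner.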

How the data were processed

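The deposited files list alignment positions of ChIP-seq reads. Per the file headers the authors aligned reads with Bowtie (settings -e 70, -k 2, -m 2, -n 2, version not given in the sources used here) to mm8. Each value in the deposited files is a signed, 0-based leftmost position, in separate sections for reads with 1 and with 2 alignments, per the file headers. Reads with more alignments are not listed. From these positions, distinct reads were placed in tiles, scaled to RPM and tested with SciPy 1.17.1, NumPy 2.4.6 and pandas 2.3.3 in Python 3.11.15. The tile calls and the test of the B6 share were tried on simulated tile counts, and the other steps were not. Coordinates are written 1-based. Summits come from ends smoothed over 100 bp, and strand distances from reads within 300 bp.

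The windows, the sites and the lists were chosen with earlier results of these data known. The sites named are, in each window, the 8 highest by mean RPM, the widest, the closest pair, the widest gap, those at the borders, tiles past the library test, and up to 5 pairs of 2-alignment places (those with most reads). Sites named as neighbours of these, and the tiles called in B2 alone, were chosen after their values were seen. No sequences are given, since no mm8 genome was used.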

Additional observations from a re-analysis of the deposited data

How the results depend on the processing

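Precision is limited by B6, where 1 read is worth 0.350 RPM. The cause of the shifts below was not tested, unless the setting itself sets it. Of the 4000 tiles, 47 were called in both libraries. This became 91 against the genome-wide rate alone and 96 with sliding windows, and leaving out 1 library gave 47 (without B2) to 81 (without B6). Counting reads of 1 or 2 alignments, the latter at both places, took the chromosome 3 sites from 21 to 37. The mean share went from 0.158% of reads to 0.213% of listings. Sites on chromosome 11 stayed within 1.5 times 19 under the alternatives run. Leaving out 1 library gave 21 to 31 sites on chromosome 3, 20 to 26 on chromosome 11 and shares of 0.126% to 0.191%.

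The 2 tiles that differed between libraries became 27 with all reads kept (0.628% of all tiles tested passed there). They became 1 with ends moved 80 bp (0.136% of all tiles), 5 with the grid moved (0.151%) and 6 with reads of 1 or 2 alignments (0.286%). With at least 20 reads they were 6 (3.43% of members, 0.930% of all tiles). With no minimum of reads they were 0 (exact binomial test, 63 of 3094 at an unadjusted p below 0.05), where 0.000659% of all tiles passed. Against the share of all distinct reads they were 51, 50 of them higher in B6 and 1 lower (6.87% of all tiles). The median ratio of 1.97 became 1.33 with all reads kept through sites and totals recounted, and 0.878 once scaled by the median of all called tiles. The median summit difference of 13 bp became 9 bp with all reads kept and 10 bp with 50-bp smoothing. The correlation of 0.825 became 0.841 with all reads kept, 0.678 and 0.915 with pseudocounts of 0.1 and 2, and 0.886 in tiles of at least 10 reads. The strand distance (88.25 bp over both libraries) was 79 to 97.5 bp, and the 9 pairs were 6 to 9, with 1 library left out. The map of separate maxima was added after the data were seen. No paired analysis was possible because both libraries belong to 1 group.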
